A study of Homo sapiens with 20 samples.

Results

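RNA levels were examined in the U937T_EVI1-HA clones E10 and E14 after 48 h without tetracycline (tet), against the same clones kept with tet for 48 h. Both clones carry a human EVI1 cDNA with an HA epitope tag that tet keeps silent, in the background of U937, a human myeloid leukemia line of monocytic character. The members are the 4 arrays that the labels give for E10 and E14 at 48 h, of 20 arrays in the whole series. There were 2 arrays without tet (1 of E10, 1 of E14) and 2 arrays with tet (1 of each clone), and each array without tet was paired with the array of its own clone. The control lines at 48 h, which have no EVI1 transgene, gave 4 further arrays, 2 without tet and 2 with tet: P2 (U937T_vec) is 1 clone that received the empty vector, and U937T is the parental line. Cells of all groups were grown with puromycin, and E10, E14 and P2 also with hygromycin. Control cultures with tet were washed like those from which tet was withdrawn. Each of E10 and E14 is a single clone measured on 1 array per condition and time. Standard errors and p-values rest on the spread between lines, E10 against E14 and P2 against U937T, pooled over all arrays of the series, and not on repeated cultures of 1 clone.

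EVI1, the zinc finger transcription factor encoded by the MECOM locus, binds DNA through GATA-like and ETS-like sequences and recruits corepressors such as CtBP and histone methyltransferases. It is active in hematopoietic stem cells, and its aberrant expression marks a group of acute myeloid leukemias with poor outcome. In myeloid precursors, progress to a mature phagocyte is accompanied by synthesis of integrins, Fc receptor adaptors and the NADPH oxidase, by loss of primary granule proteins, and by lower output of ribosomes, a process driven by MYC during growth.

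Values were log2 intensities of Human Genome U133 Plus 2.0 arrays, and 17860 genes, each represented by 1 probe set, were tested. A change is the log2 intensity without tet minus that with tet, and a gene was called when limma gave an adjusted p under 0.05 over all genes. The medians of the arrays were between 5.25 and 5.35. The 3′ minus 5′ difference of the actin and GAPDH control probe sets, which grows as RNA degrades, was 0.683 in E10 without tet and 0.840 in E14 without tet, against 0.656 and 0.745 with tet. In the control lines it was 0.987 (P2) and 0.735 (U937T) without tet, against 0.837 and 1.06 with tet, and its part in the results was not tested beyond a fit with it as a covariate. Of the 10 measured markers of myeloid identity 6 were higher without tet and none lower (median change 1.12), and SPI1, CEBPA, LYZ and MPO did not pass the test. The 3 given here were chosen after their values were seen. LYZ, which encodes lysozyme, had 11.65 (E10) and 11.77 (E14) without tet and 11.66 and 12.23 with tet, and CEBPA, a factor of granulocyte and monocyte commitment, had 11.54 and 11.49 without tet and 11.49 and 11.56 with tet. MPO, the myeloperoxidase of primary granules, was no brighter than the middle of each array, with 4.87 and 4.91 without tet and 5.29 and 4.97 with tet.

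The targeted gene was read first. MECOM had a log2 intensity of 10.51 in E10 and 9.98 in E14 without tet, against 7.13 and 7.15 with tet. Its change was 3.10 (standard error 0.21, 8.57-fold, adjusted p = 6.78e-08), and the values with and without tet did not overlap. In the control lines MECOM had 5.91 (P2) and 6.53 (U937T) without tet and 6.90 and 6.48 with tet, all below the clones. A further MECOM probe set stayed near 3.36 in E10 under both conditions and changed by less than 0.09 in either clone, and whether the probes of either set lie within the transgene was not analysed here.

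MS4A3, a membrane-spanning 4-domain protein of myeloid precursors that has been linked to control of the cell cycle, showed the largest fall of all called genes. It had 8.18 in E10 and 8.17 in E14 without tet, against 11.98 in each clone with tet, a 14-fold decrease (log2 change -3.81, standard error 0.10, adjusted p = 1.46e-11). Its second probe set changed by -4.18 in E10 and -4.32 in E14. P2 and U937T without tet (11.86 and 11.97) stood close to P2 and U937T with tet (12.16 and 12.17). By time, MS4A3 changed by 0.05 and 0.03 in E10 and E14 after 6 h, by -0.05 and -0.20 after 12 h, and by -1.19 and -1.35 after 24 h. Among the 12 measured members of the MS4A and TMEM176 family, 3 fell, MS4A3 itself included, and none rose, against 14.7% of all genes lower. MS4A6A fell by 1.22 (adjusted p = 3.15e-05) and MS4A7 by 0.50 (adjusted p = 0.0367, a call lost without either clone and with only the arrays at 48 h), whereas the other 9 did not pass the test, with changes between -0.27 and 0.04. The window of 300 bases around the MS4A3 start (250 bases before it and 50 after, RefSeq, GRCh38.p14, plus strand, chr11:60056415-60056714) is shown because this gene fell the most, with a GATA-like motif in capitals.

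MS4A3: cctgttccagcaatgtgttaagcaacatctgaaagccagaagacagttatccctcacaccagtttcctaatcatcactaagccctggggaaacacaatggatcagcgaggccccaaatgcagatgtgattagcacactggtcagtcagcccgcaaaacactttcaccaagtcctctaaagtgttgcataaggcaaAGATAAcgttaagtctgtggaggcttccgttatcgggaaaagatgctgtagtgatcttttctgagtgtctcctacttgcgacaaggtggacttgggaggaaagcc

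The motif AGATAA, searched on both strands, occurred 1 time in this window, starting 55 bases before the gene start. It occurred in 7.09% of the 14003 windows of tested genes and in 10.5% of all 27305. Among genes called at least 2-fold lower AGATAA was in 17 of 426 windows (3.99%), and among those at least 2-fold higher in 31 of 461 (6.72%). Whether EVI1 binds at this motif was not tested here. The longer ETS-like sequence GAAGATGAG was in 0.271% of the windows of tested genes and not in that of MS4A3.

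**Figure D1:**
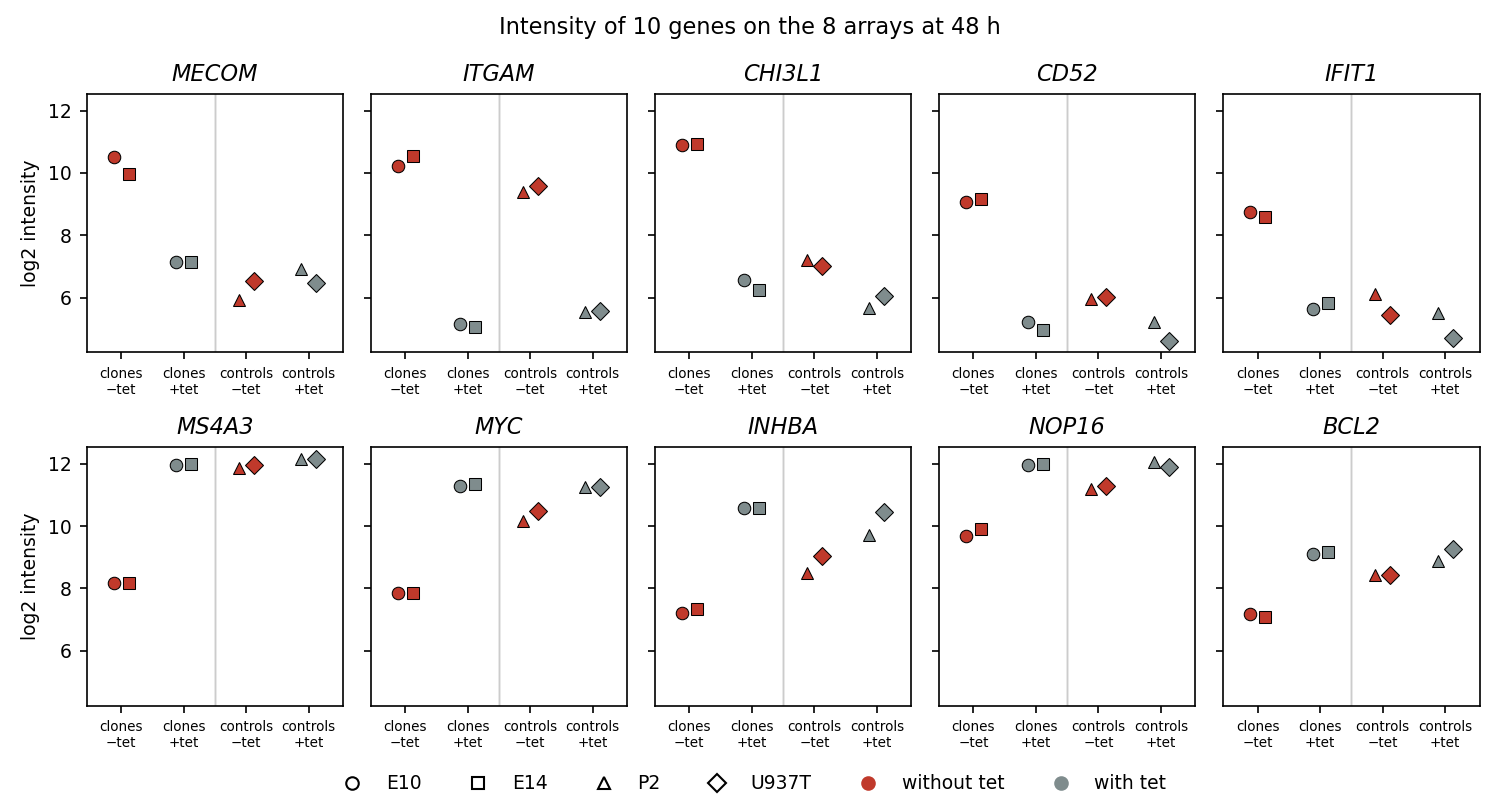
Log2 intensity (vertical axis) of 10 genes on the 8 arrays at 48 h, with 1 point per array, E10 and E14 on the left of each panel and P2 and U937T on the right, cultures without tet in red and with tet in gray. Within each panel E10 and E14 lie close together, and MS4A3 without tet stands at 8.18 and 8.17 only in the EVI1 clones.

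Of 17860 genes, 2854 were higher (16.0%) and 2623 lower (14.7%) in E10 and E14 cells without tet than with tet, of which 575 and 519 changed at least 2-fold and 100 and 42 at least 4-fold. Without E10 the counts were 1044 higher and 1080 lower, and without E14 they were 1101 and 883. Each clone on its own passed 2-fold in the same direction for 484 higher and 435 lower genes. Over all tested genes, the changes of E10 and E14 differed by a median of 0.14, and for 95% of genes by no more than 0.51. Only 14 genes differed by 1 or more. The widest gap was that of H4C8, a histone H4 gene, which changed by 0.53 in E10 and 1.84 in E14, followed by EHF (-0.97 and 0.27), C3orf36 (-0.76 and 0.47), LVRN (0.15 and 1.30) and GDA (-1.01 and 0.10). These 5 were dim genes, with no value above 5.13 on the 4 arrays. EHF, C3orf36 and GDA were not called. Of the 1094 genes called and changed at least 2-fold, 623 had further probe sets (1217 in all), and 1016 of these moved in the direction of the gene in both clones, 423 of them by at least 2-fold.

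**Figure D2:**
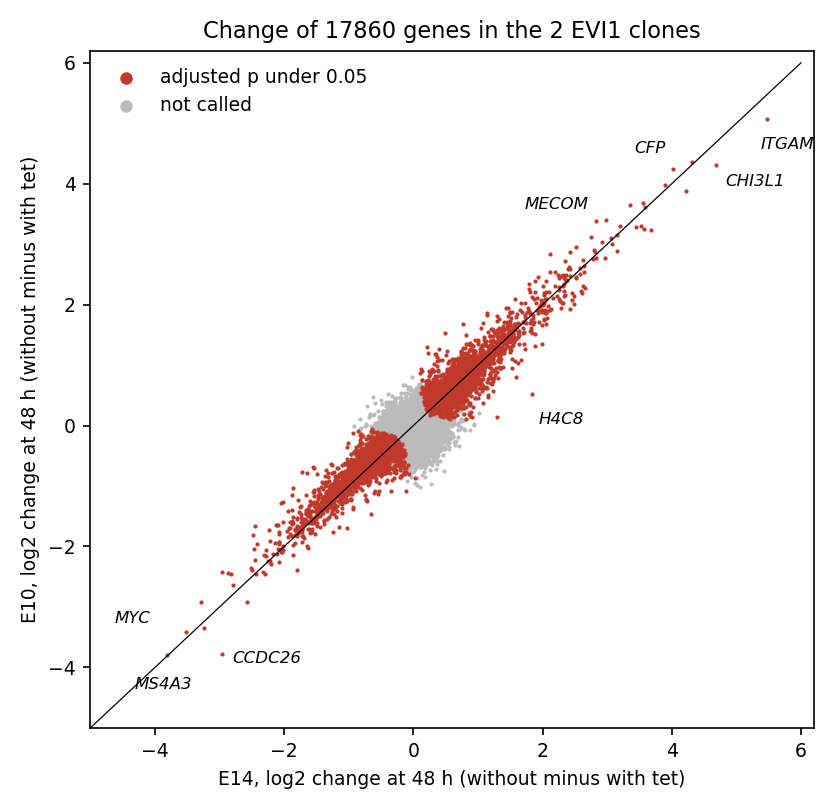
Log2 change at 48 h (without minus with tet) in E10 (vertical axis) against E14 (horizontal axis), with 1 point per gene, genes with an adjusted p under 0.05 in red and the others in gray, and a line of equal change. Most points lie along the line, ITGAM and MS4A3 near its ends, and H4C8 stands apart from it.

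ITGAM, the integrin chain CD11b, showed the largest rise. It had 10.21 in E10 and 10.53 in E14 without tet, against 5.14 and 5.05 with tet (log2 change 5.27, standard error 0.15, adjusted p = 3.35e-11). This value rests on 1 probe set, since the other changed by -0.37 in E10 and 0.05 in E14. CHI3L1, a secreted chitinase-like glycoprotein of macrophages, had 10.88 and 10.92 without tet, against 6.57 and 6.24 with tet (4.50, standard error 0.16). CFP, the complement factor properdin, had 9.92 and 9.99 without tet, against 5.57 and 5.67 with tet (4.34, standard error 0.09). In all 3 genes the arrays without tet lay more than 4 units above those with tet. The lymphocyte and monocyte surface glycopeptide CD52 rose by 4.05 (standard error 0.18), with 9.08 and 9.17 without tet and 5.20 and 4.95 with tet, and its other probe set changed by 6.12 in E10 and 5.98 in E14. The adaptor TYROBP (DAP12), which couples receptors to ITAM signaling, rose by 3.93, and FCER1G, the common gamma chain of Fc receptors, by 2.88. The 12 largest rises further held NBEA (4.14), a BEACH-domain protein of vesicle traffic, the lectin ITLN1 (3.62), the oxidase subunit NCF1 (3.60), the RNA-binding protein ELAVL4 (3.50), the antisense transcript ITGB2-AS1 (3.45), the scavenger receptor CD36 (3.41) and the hexokinase HK3 (3.41). NCF1 has near-identical pseudogenes, so its probe set may read them too, and ITGB2-AS1 overlaps ITGB2, which itself rose by 1.61.

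Of 16 measured S100 and annexin genes 11 rose and none fell, with a median change of 0.59, against -0.04 over all genes. S100A9, a subunit of calprotectin, had 11.74 and 11.73 without tet and 8.58 and 8.57 with tet (3.16), and its partner S100A8 rose by 3.02. In the control lines 8 of the 16 rose (median 0.42), and 3 had a called difference above zero. Of 7 phagocyte oxidase genes 4 rose, NCF1, NCF4 (1.53), CYBA (1.04) and RAC2 (0.83), and 4 rose in the control lines too (median 0.54), with 1 called difference. Leukocyte integrins and their ligands gave 10 higher and 3 lower genes of 19 (median 0.39). ITGAL (2.07), ITGAX (1.66) and ITGB2 (1.61) were among the higher ones. In the control lines 7 of the 19 rose and 3 fell (median 0.36), with 5 called differences above zero and 1 below. Of 22 Fc and ITAM receptor genes 10 rose and 2 fell in the clones and 8 rose in the control lines, with 1 called difference above zero and 3 below. For the maturation of monocytes and macrophages, 9 genes of 32 were higher and 3 lower in the clones (median 0.04). Over all genes, 16.0% were higher and 14.7% lower. In P2 and U937T 7 of the 32 were higher and none lower, with 5 called differences above zero and 2 below. Under the alternative settings the median of this list lay between 0.04 and 0.29. The monocyte coreceptor CD14 stayed dim, with 4.23 and 4.03 without tet and 4.16 and 4.17 with tet, and is named here after its values were seen.

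Of the primary granule genes, 6 had a called difference from the control lines below zero and 1 above. Of 15 measured genes, MS4A3 among them, 10 fell and 2 rose, with a median of -0.55. The neutrophil serine protease PRTN3 (proteinase 3) had 9.60 and 9.12 without tet, against 11.66 and 11.40 with tet (-2.17, standard error 0.12, adjusted p = 1.59e-08). SERPINB10 fell by 2.45 and the cystatin CST7 by 1.85. ELANE (-1.80), which encodes neutrophil elastase, and CTSG (-1.69), which encodes cathepsin G, also fell and are named after their values were seen. The 2 members that rose were CFD (1.72), complement factor D, and CD63 (0.89, named after its values were seen), a tetraspanin of granule and lysosome membranes. Of 36 lysosomal genes 21 rose and 1 fell (median 0.43), with GRN (progranulin, 1.39), CTSD (cathepsin D, 1.15) and NEU1 (0.99) among the higher ones. In the control lines 9 of the lysosomal genes rose (median 0.20), and 2 had a called difference above zero. Of 23 autophagy genes 13 rose and none fell (median 0.50), led by the receptor OPTN (2.18) and by WIPI1 (1.68). In the control lines 3 of the autophagy genes rose (median 0.15), and 5 had a called difference above zero.

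Interferon-stimulated genes, which normally answer interferon and encode antiviral proteins, rose as a group. Of 37 measured genes 26 rose and 1 fell, with a median change of 0.82 (0.83 in E10, 0.83 in E14). IFIT1, which binds viral RNA that lacks a methylated cap, had 8.76 in E10 and 8.58 in E14 without tet, against 5.64 and 5.84 with tet (2.93, standard error 0.15, adjusted p = 7.03e-09). IFIT2 rose by 2.53, the 2′-5′ oligoadenylate synthetase OAS1 by 2.25 and the mitochondrial protein IFI6 by 2.25. The transcription factors IRF7 and IRF9 had 9.05 and 9.36 (IRF7) and 9.33 and 9.35 (IRF9) without tet, against 6.86 and 6.75 (IRF7) and 7.18 and 6.86 (IRF9) with tet, and of 20 IRF and STAT factors 11 rose and 2 fell. MHC class I presentation had 12 higher and 2 lower genes of 18 (median 0.53), among them HLA-E (1.18), the immunoproteasome subunit PSMB9 (1.27) and the transactivator NLRC5 (1.03). MHC class II presentation had 3 higher and 1 lower of 14 (median 0.01), against 16.0% higher and 14.7% lower over all genes. The windows of IFIT1 (chr10:89392373-89392672, plus strand) and IFI6 (chr1:27672143-27672442, minus strand), both RefSeq, GRCh38.p14, are shown because these genes rose together and hold GAAANNGAA, the core of the interferon-stimulated response element, in capitals.

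IFIT1: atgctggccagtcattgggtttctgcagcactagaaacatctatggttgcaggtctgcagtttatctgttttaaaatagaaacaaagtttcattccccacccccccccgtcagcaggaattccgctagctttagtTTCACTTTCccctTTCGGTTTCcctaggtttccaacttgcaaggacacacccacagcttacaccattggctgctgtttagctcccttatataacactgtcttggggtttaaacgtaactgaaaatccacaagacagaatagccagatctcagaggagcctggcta

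IFI6: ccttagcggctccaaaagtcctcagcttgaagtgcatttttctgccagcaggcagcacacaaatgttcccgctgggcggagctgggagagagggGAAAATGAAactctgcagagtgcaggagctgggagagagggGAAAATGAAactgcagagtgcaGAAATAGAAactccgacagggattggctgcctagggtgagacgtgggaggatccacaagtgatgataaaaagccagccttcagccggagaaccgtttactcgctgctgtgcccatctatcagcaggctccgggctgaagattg

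GAAANNGAA was searched on both strands, where N is any base, and occurred 2 times in the IFIT1 window and 3 times in that of IFI6. Of the 29 interferon-stimulated genes with a window 21 held it (72.4%), against 6.60% of windows of all tested genes. Among genes that were called at least 2-fold higher it was in 49 of 461 windows (10.6%), and among those at least 2-fold lower in 19 of 426 (4.46%). The interferon-stimulated list was made of genes known to answer interferon, so its share was set by that choice. Binding at GAAANNGAA was not tested here.

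Among falls, MYC, the growth-promoting transcription factor, had 7.87 in E10 and 7.84 in E14 without tet, against 11.28 and 11.37 with tet (-3.47, standard error 0.15, adjusted p = 1.34e-09), a value that rests on its only probe set. CCDC26, a noncoding transcript of the same chromosome arm, had 4.21 and 5.07 without tet and 8.0 and 8.02 with tet (-3.37). INHBA, which encodes the subunit of activin A, had 7.23 and 7.36 without tet, against 10.57 and 10.59 with tet (-3.29, standard error 0.13). For each of them both arrays without tet lay below both arrays with tet by more than 2 units. The other large falls were PCOLCE2 (-3.10), an enhancer of procollagen processing, POLR3G (-2.74), a subunit of RNA polymerase III, STEAP3 (-2.72), a ferrireductase, ALDH1L2 (-2.69), a mitochondrial folate enzyme, TAF4B (-2.65), a TFIID subunit, ADGRA3 (-2.64), an adhesion receptor, and FERMT1 (-2.45), a kindlin.

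Ribosome production gave the largest number of lower genes among the lists. Of 43 measured genes of nucleolar ribosome assembly 42 fell and none rose, with a median change of -1.36 (-1.33 in E10, -1.38 in E14). NOP16, a nucleolar assembly factor, had 9.69 and 9.92 without tet, against 11.96 and 12.00 with tet (-2.17, standard error 0.10, adjusted p = 3.81e-09). MRTO4 (-2.07), NLE1 (-2.02) and WDR3 (-2.01), factors of large and small subunit maturation, fell to a similar extent. Of 31 subunits of RNA polymerase I and III 19 fell and 1 rose (median -0.56), and of 36 translation initiation factors 20 fell and none rose (median -0.38). Mitochondrial ribosomal protein genes fell in 37 of 47 cases (median -0.59), with MRPS2 (-1.49) and MRPL4 (-1.42) at the low end. In the control lines 12 of these 47 genes (median -0.27), 12 RNA polymerase I and III subunits and 5 initiation factors fell. Called differences below zero numbered 6, 7 and 4 in the same order, and none lay above zero. In the clones, cytosolic ribosomal protein genes moved little: 5 of 36 fell, none rose, and the median was -0.11. The respiratory chain and ATP synthase also had a median near zero (-0.04). There 3 genes of 44 were higher and 6 lower, against 16.0% and 14.7% over all genes. Windows of MRTO4 (chr1:19251555-19251854, plus strand) and NLE1 (chr17:35142254-35142553, minus strand), RefSeq, GRCh38.p14, are shown as the members with the largest falls whose window holds CACGTG, the E-box that MYC and its relatives bind, in capitals.

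MRTO4: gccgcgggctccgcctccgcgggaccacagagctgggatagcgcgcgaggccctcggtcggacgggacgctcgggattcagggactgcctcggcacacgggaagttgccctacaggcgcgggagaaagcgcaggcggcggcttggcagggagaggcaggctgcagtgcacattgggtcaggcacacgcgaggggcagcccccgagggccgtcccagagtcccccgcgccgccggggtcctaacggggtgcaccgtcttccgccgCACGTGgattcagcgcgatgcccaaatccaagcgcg

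NLE1: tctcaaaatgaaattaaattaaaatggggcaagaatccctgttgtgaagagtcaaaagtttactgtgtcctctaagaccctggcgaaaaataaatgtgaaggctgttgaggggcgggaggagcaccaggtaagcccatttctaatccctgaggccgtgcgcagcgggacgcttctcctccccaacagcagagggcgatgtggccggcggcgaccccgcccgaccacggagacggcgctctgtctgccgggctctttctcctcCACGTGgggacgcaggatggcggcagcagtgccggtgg

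In both windows CACGTG, which reads the same on both strands, lay just after the gene start (from position 15 in MRTO4 and 13 in NLE1). It was found in 15 of the 37 ribosome assembly windows (40.5%), against 9.26% of windows of all tested genes. Among genes that were called at least 2-fold lower 104 of 426 windows held it (24.4%), and among those at least 2-fold higher 32 of 461 (6.94%). The lysosome list, which moved upward, held it in 9 of 24 windows (37.5%), the aminoacyl-tRNA synthetases in 1 of 14 (7.14%) and the mitochondrial ribosomal proteins in 3 of 43 (6.98%).

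Genes that supply building blocks fell as well. All 17 measured aminoacyl-tRNA synthetases, which charge tRNA with amino acids, fell (median -0.79, and 5 called differences from the control lines below zero), VARS1 (-1.52) and WARS1 (-1.31) the most. Nucleotide synthesis had 16 lower and 1 higher gene of 23 (median -0.87), including PFAS (-1.81) of the purine pathway and CAD (-1.41) and DHODH (-1.47) of the pyrimidine pathway. Serine, one-carbon and ATF4 genes had 14 lower and 1 higher of 22 (median -0.77). PSAT1, an enzyme of serine synthesis, had 9.73 and 9.65 without tet, against 11.49 and 11.73 with tet (-1.92), and CTH (-2.34) and ASS1 (-2.25), enzymes of cysteine and arginine synthesis, fell further. Of 16 amino acid transporters 10 fell and none rose, including both chains of the large neutral transporter, SLC7A5 (-1.56) and SLC3A2 (-1.34). Heat shock chaperones had 18 lower and 2 higher genes of 29 (median -0.47), and BAG3, a cochaperone, was one of those that rose (2.47). In the control lines 7 aminoacyl-tRNA synthetases, 11 nucleotide synthesis, 7 serine, one-carbon and ATF4, 4 amino acid transporter and 2 chaperone genes fell. There 1 nucleotide synthesis gene and 2 chaperone genes rose. Differences from the control lines called below zero numbered 10 for nucleotide synthesis and 9 for serine, one-carbon and ATF4 genes. They numbered 5 for the transporters and 3 for the chaperones, with 1 chaperone above zero. Glycolysis and the pentose phosphate pathway had 4 higher and 6 lower genes of 26 in the clones (median 0.01), against 16.0% higher and 14.7% lower over all genes. The hexokinases changed in opposite directions, HK3 by 3.41 and HK2 by -1.61. GPI, glucose-6-phosphate isomerase, had 9.86 and 9.85 without tet and 11.49 and 11.55 with tet (-1.66), whereas it changed by -0.02 in P2 and 0.11 in U937T.

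Genes of DNA replication and of mitosis went apart. Of 43 replication genes 28 fell and none rose (median -0.41), and 4 had a called difference from the control lines below zero. The genes that fell included the polymerase delta subunit POLD2 (-1.23) and ORC1 (-0.94) of the origin recognition complex. Of 35 mitosis genes 14 rose and 1 fell (median 0.29), with ECT2 (0.81), CENPE (0.75) and the phosphatases CDC25C (0.79) and CDC25B (0.74) among the higher ones. ECT2 changed by only 0.15 (adjusted p = 0.766) when read from its other probe set. In the control lines 12 of the 35 mitosis genes rose too (median 0.30), and none of the differences was called. Of 20 CDK inhibitors and antiproliferative genes 11 rose and 3 fell in the clones. CDKN1A (p21) had 10.35 and 10.02 without tet, against 7.87 and 7.73 with tet (2.39, standard error 0.17, adjusted p = 1.56e-07), and CDKN2D (p19) rose by 2.39. In the control lines 5 of the 20 rose and 1 fell, with 3 called differences above zero and none below. The difference from the control lines was 1.09 for CDKN1A and 1.08 for CDKN2D. Of 18 G1 cyclins, kinases and E2F genes 6 rose and 7 fell in the clones. The cyclin CCND1 rose by 1.55 and CCND3 by 0.99, while E2F5 fell by 1.89. In P2 and U937T 5 of the 18 rose and 3 fell, with 1 called difference above zero and 1 below.

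Regulators of cell death changed on both sides. Among the 6 measured prosurvival BCL2 members, BCL2 had 7.18 and 7.09 without tet, against 9.12 and 9.17 with tet (-2.01, standard error 0.14, adjusted p = 1.23e-07). BCL2A1 (1.30), BCL2L1 (0.72) and MCL1 (0.63) rose, and BCL2L2 (0.04) and BCL2L10 (-0.15) did not pass the test. When read from the probe set that varied most over the arrays, BCL2L1 changed by 0.97 and missed the threshold (adjusted p = 0.0811), and MCL1 changed by -0.13 (adjusted p = 0.898). Among the 11 proapoptotic members BMF had 8.96 and 9.20 without tet, against 6.89 and 6.75 with tet (2.27, standard error 0.14), and BNIP3L (1.22), PMAIP1 (0.73) and BAX (0.47) also rose. HRK (-1.29) and BID (-0.54) fell. The remaining 5 did not pass the test, BAK1 (0.17), BOK (-0.21), BAD (0.23), BIK (0.00) and BCL2L11 (0.12). Of 25 death receptor, caspase and inhibitor genes 13 rose and 2 fell (median 0.57), among them the ligand TNFSF10 (TRAIL, 2.33) and APAF1 (1.06), the apoptosome scaffold.

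TLR9, the endosomal receptor for CpG DNA, had 9.19 and 8.74 without tet, against 5.80 and 5.75 with tet (3.19, standard error 0.18), and TLR1 rose by 2.03 while TLR4 fell by 0.87. Growth factor and cytokine receptors had 12 higher and 3 lower genes of 24, against 16.0% higher and 14.7% lower over all genes. TGFBR2 (2.01) and TNFRSF1B (1.40) were among those that rose. In P2 and U937T 6 of the 24 rose and none fell, with 4 called differences above zero and 3 below. Of 29 immediate early and KLF factors 15 rose and 4 fell in the clones, KLF2 by 2.60 and FOS by 2.17 upward. The control lines had 9 of these higher and 3 lower, with 5 called differences above zero and none below. Among 28 hematopoietic transcription factors 9 rose and 3 fell in the clones (median 0.09), and 5 rose and 3 fell in the control lines. Of their differences 4 were called above zero and 1 below. In the clones MYB, a factor of progenitors, had 11.07 and 11.25 without tet and 12.38 and 12.36 with tet (-1.21). Of 14 EVI1 corepressors and partners 5 rose and none fell (median 0.015), and the acetyltransferase KAT2B (1.77) and SMAD3 (1.09) had the largest changes among them. In the control lines 2 of the 14 rose and none fell, and 2 had a called difference above zero.

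**Figure D3:**
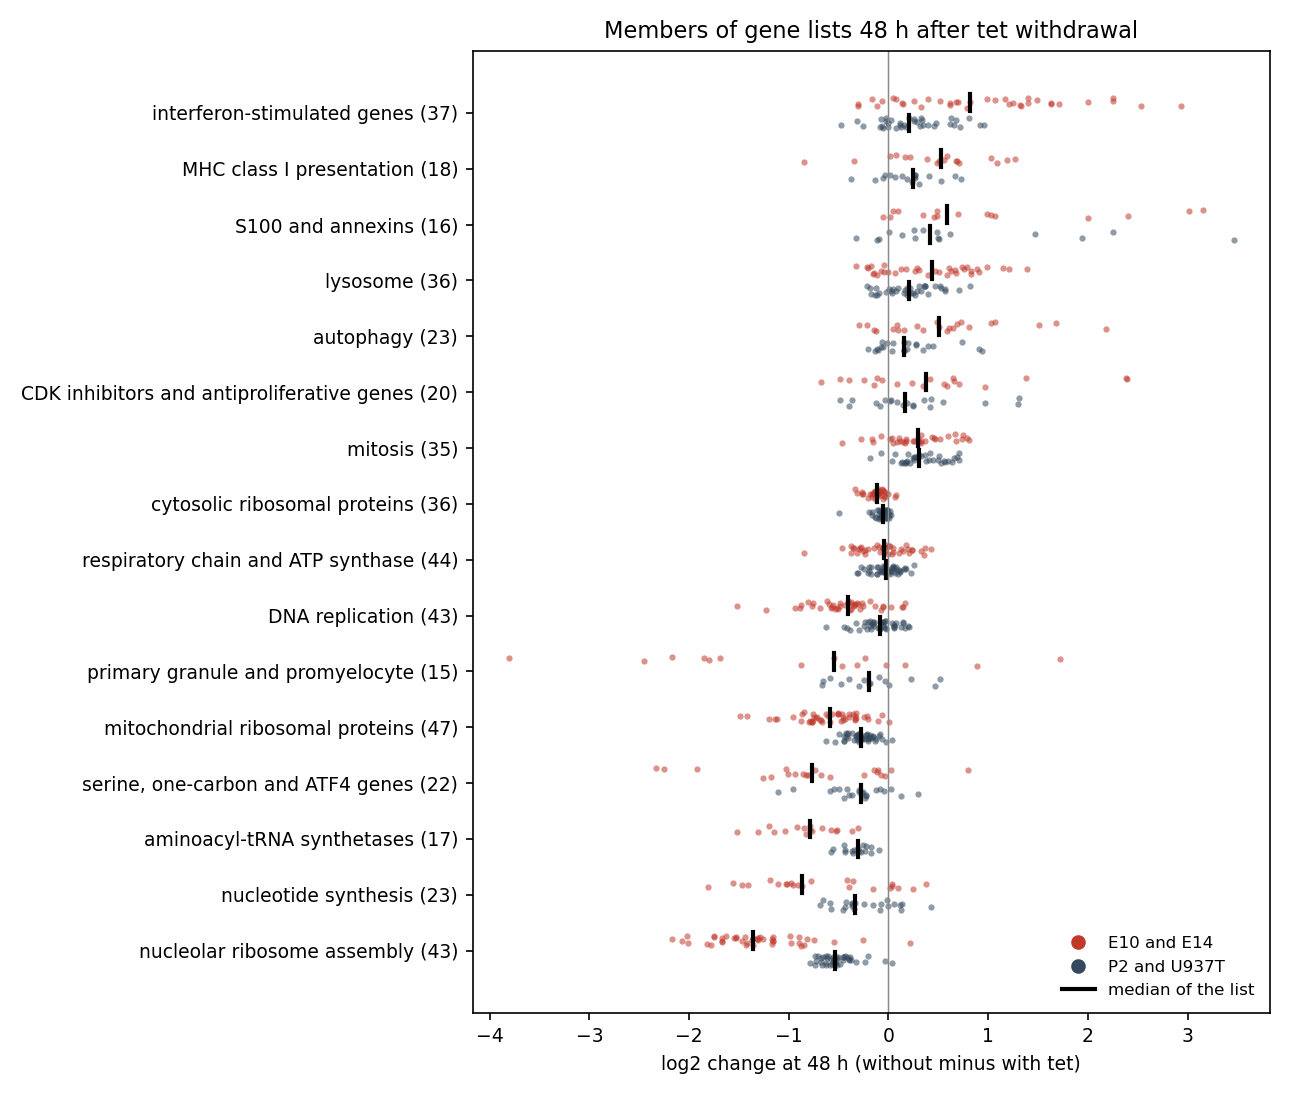
Log2 change at 48 h (horizontal axis, without minus with tet) of the measured members of gene lists, with 1 point per gene, E10 and E14 averaged by the fit in red above P2 and U937T in dark blue, and a black tick at each median. Ribosome assembly has its median at -1.36 in the EVI1 clones and at -0.54 in the control lines, and the interferon-stimulated genes at 0.82 and 0.20.

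Markers of other lineages had mean levels between 5.04 and 5.62 per list and array, close to the medians of the arrays. The brightest member reached 8.64 for T and NK cells, 8.41 for B cells and 10.88 for fibroblasts and endothelium. Over all genes 16.0% were called higher and 14.7% lower. None of 7 megakaryocyte and none of 7 epithelial markers was called, of 15 T and NK cell markers 2 rose (CD3E by 1.17, NKG7 by 1.11), of 10 B cell markers 3 rose (EBF1 by 1.53, CD79B by 0.49, CD79A by 0.43 or, from its other probe set, by 1.40), of 7 erythroid markers KLF1 fell by 1.39, and of 10 fibroblast and endothelial markers only PECAM1, which monocytes carry too, rose, by 1.51. Under 5 on all 4 arrays of the clones were 6 of the 15 T and NK cell, 2 of the 10 B cell, 2 of the 7 erythroid and 4 of the 10 fibroblast and endothelial markers. Their summed linear intensities on the 2 arrays without tet were 1136 to 1259 for T and NK cells, 749 to 798 for B cells and 298 to 313 for erythroid cells, against 918 to 991, 573 to 647 and 386 to 393 on the 2 arrays with tet. Those of the 10 measured myeloid identity genes were 29576 to 29869 without tet and 15058 to 17092 with tet, and the part of other cell types in the results was not tested. In bulk RNA, a change in the share of cells of 1 kind and a change of RNA per cell cannot be told apart.

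The control lines addressed which changes accompany tet withdrawal in cells with no EVI1 transgene. In P2 and U937T without tet, 966 genes were higher (5.41%) and 946 lower (5.30%) than with tet, and 125 and 8 of them changed at least 2-fold. The change of E10 and E14 minus that of P2 and U937T was called for 434 genes above zero (2.43%) and 541 below zero (3.03%), of which 124 and 122 differed at least 2-fold. These counts were 332 and 340 without P2, 175 and 263 without U937T, 47 and 57 without E10, and 29 and 35 without E14. Apart from MECOM (3.57), the largest differences above zero were those of CHI3L1 (3.24, standard error 0.22), CD52 (2.98), RIN2 (2.58), an effector of RAB5 and Ras, and ITLN1 (2.52). CHI3L1 changed by 1.54 in P2 and 0.97 in U937T, and CD52 by 0.74 and 1.39. The largest differences below zero were those of MS4A3 (-3.56, standard error 0.14), MYC (-2.56), CLEC5A (-2.45), GPR34 (-2.41) and CCDC26 (-2.34). CLEC5A, a DAP12-coupled lectin receptor, had 6.97 and 7.20 without tet, against 9.10 and 9.37 with tet, in the clones, and changed by 0.52 in P2 and 0.08 in U937T. GPR34, a lysophosphatidylserine receptor, was at 3.15 and 3.13 without tet and 3.37 and 3.24 with tet in the clones, and rose by 2.32 in P2 and 2.17 in U937T, so that its difference rested on the rise in the control lines.

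ITGAM also rose in the control lines, by 3.84 in P2 and 4.0 in U937T, which left a difference of 1.35 (adjusted p = 0.00158). NCF1 (difference 0.60, standard error 0.24, adjusted p = 0.198), CD36 (0.72, adjusted p = 0.298) and S100A8 (-0.44, adjusted p = 0.408) did not pass the test of the difference. Interferon-stimulated genes had a median of 0.20 in the control lines, 19 of 37 had a difference above zero that was called and none below, and for 28 of them both clones exceeded both control lines, which was so for 22.8% of all genes. Of 43 ribosome assembly genes 33 fell in the control lines (median -0.54), and 30 had a called difference below zero. The mitosis genes had a median of 0.30 in the control lines, where 12 rose, and none of their differences was called. In 4 genes, named after their values were seen, both the clones and the control lines were called and changed in opposite directions. LILRA2, an activating leukocyte receptor, changed by -0.59 in the clones, with 8.27 and 8.42 without tet and 8.91 and 8.97 with tet, and by 1.20 in the control lines. IL18RAP, an IL-18 receptor chain, changed by -1.12 and 0.54, NKAPL by 0.33 and -0.52 and H2AC8 by -0.34 and 0.52, the clones first.

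**Figure D4:**
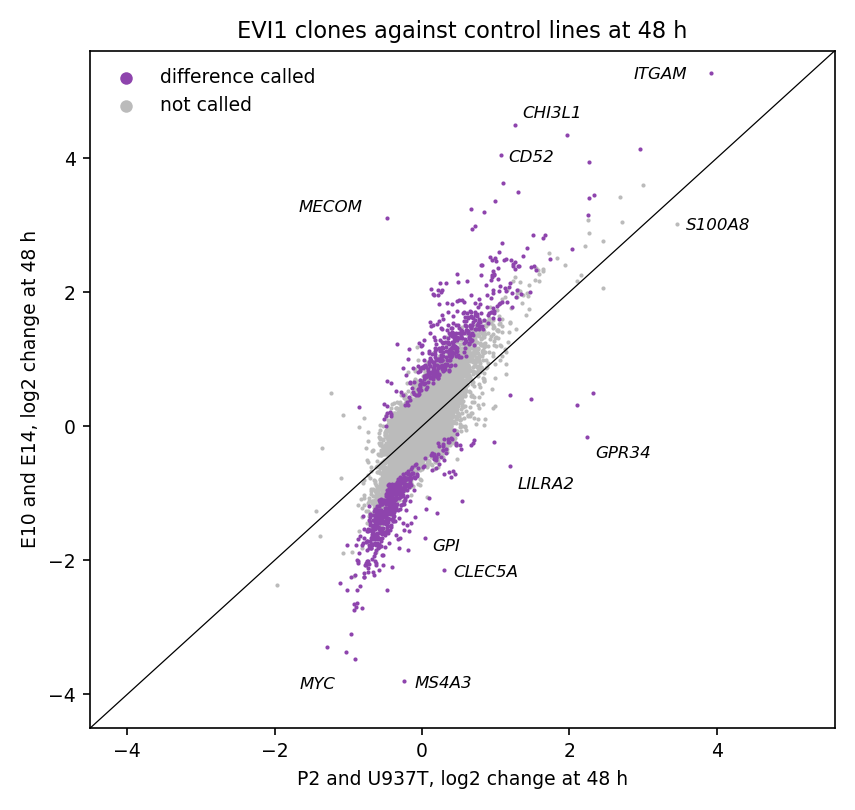
Log2 change at 48 h in E10 and E14 (vertical axis) against that in P2 and U937T (horizontal axis), both without minus with tet, with 1 point per gene, a called difference in purple, the others in gray, and a line of equal change. MECOM, CHI3L1 and CD52 lie above the line and MS4A3, MYC and CLEC5A below it, and S100A8 lies near the line.

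The change of the clones at 48 h minus that at 24 h was above zero for 369 called genes (2.07%) and below zero for 291 (1.63%). The E14 arrays at 24 h had the highest 3′ minus 5′ differences of the series (1.40 without tet and 1.52 with tet), and without the E14 arrays at 12 and 24 h the counts were 56 and 42. Without E10 they were 9 and 1, and without E14 10 and 7. The largest differences above zero were 48 h gains of CD52 (2.93), ITGAM (2.56), TYROBP (2.46), S100A8 (2.46) and CFP (2.42). Those below zero were largest for MS4A3 (-2.54), GINS4 (-2.52), CTH (-1.84), ALDH1L2 (-1.80) and PRTN3 (-1.73). GINS4, a subunit of the replicative helicase, was uncertain, since it had 8.94 and 7.88 without tet and 10.09 and 9.76 with tet at 48 h, with a standard error of 0.46, and its other probe sets changed by no more than 0.52 in either direction. The change at 48 h minus that at 24 h was 0.78 for MECOM (adjusted p = 0.178), -0.32 for INHBA (adjusted p = 0.409) and -0.80 for NOP16 (adjusted p = 0.00782).

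At 24 h, 7.97% of all genes were called higher and 9.16% lower in the clones without tet. Ribosome assembly had medians of -0.11 in E10 and -0.21 in E14 after 12 h, -0.88 and -0.99 after 24 h and -1.33 and -1.38 after 48 h, and 39 of its 43 genes already fell at 24 h. Aminoacyl-tRNA synthetases had -0.28 and -0.26 after 24 h and -0.81 and -0.79 after 48 h, with 6 of 17 called lower at 24 h. DNA replication had 0.03 and -0.04 after 24 h and -0.31 and -0.46 after 48 h, and 3 of 43 genes fell at 24 h. Mitosis genes had 0.37 and 0.43 after 24 h and 0.34 and 0.22 after 48 h, and 20 of 35 rose at 24 h. Interferon-stimulated genes had 0.26 and 0.25 after 24 h and 0.83 and 0.83 after 48 h, and 15 of 37 had a called gain between these times. The medians of all genes stayed between -0.05 and 0.02 in both clones at all 4 times.

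**Figure D5:**
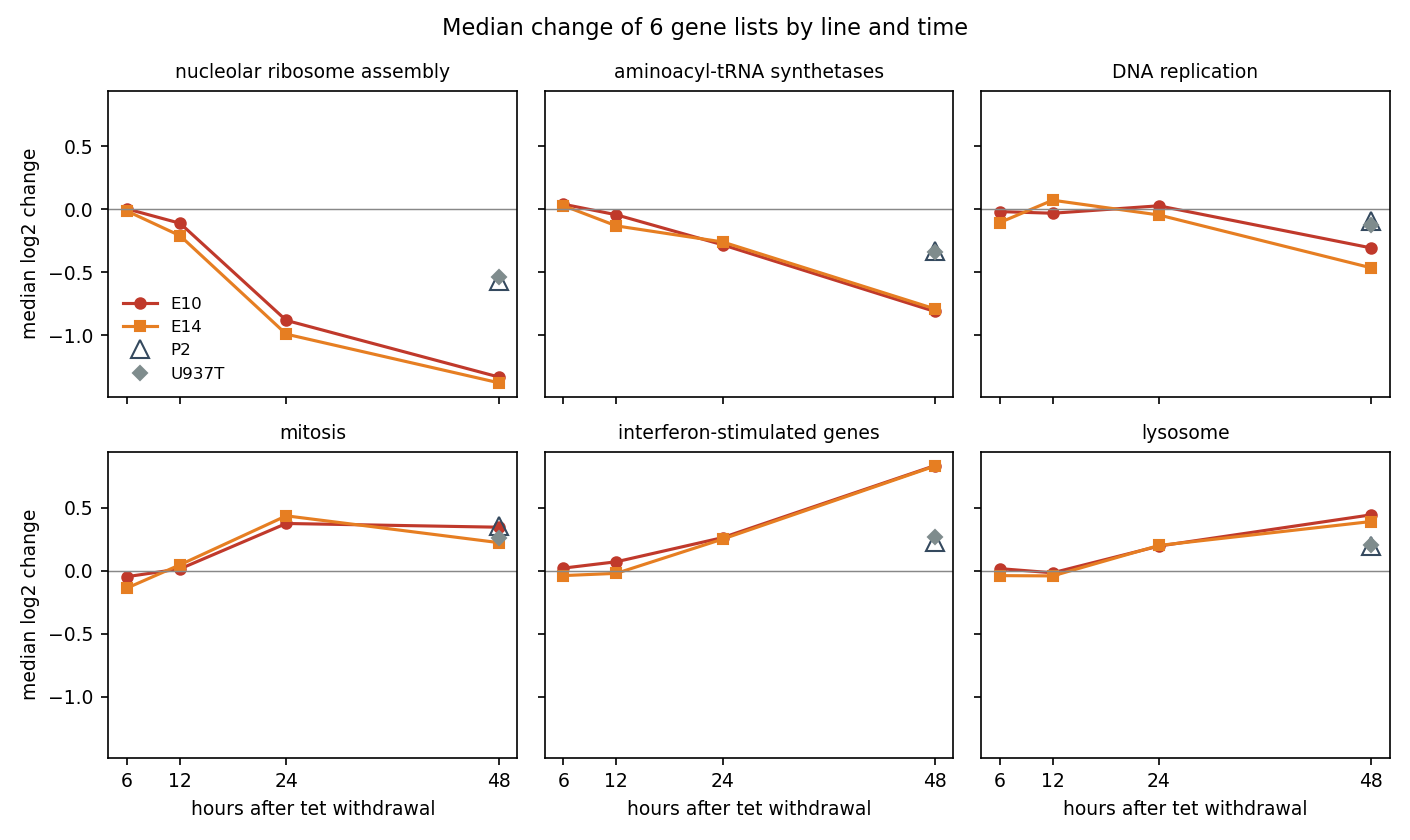
Median log2 change (vertical axis, without minus with tet) of 6 gene lists against hours after tet withdrawal, with lines for E10 and E14 and single points for P2 and U937T, which were measured at 48 h only. Ribosome assembly is at -0.88 in E10 and -0.99 in E14 at 24 h, while DNA replication is at 0.03 and -0.04.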

How the data were processed

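Total RNA of U937T_EVI1-HA clones E10 and E14, of U937T_vec clone P2 and of U937T cells was hybridised to Affymetrix HG-U133 Plus 2.0 arrays, 1 array for each line, tet condition and time. The authors deposited log2 intensities made by robust multi-array averaging (RMA), which quantile-normalizes the arrays together, so that a shift shared by all genes cannot be seen. Of 54675 probe sets, 41097 had 1 gene symbol in the platform annotation, 1801 several and 11777 none. Kept were probe sets whose log2 intensity, averaged over both tet conditions, was at least 3 in each line at 48 h and in E10 and E14 at 24 h, and each gene was read from its brightest probe set (17860 genes). limma 3.58.1 in R 4.3.3 fitted 10 groups with the line as a block to all 20 arrays, with 8 residual degrees of freedom, and p-values were adjusted by Benjamini-Hochberg over all genes. The line gives the pairing, since each clone was measured with and without tet. The difference of E10 minus E14 over all genes was correlated between groups of arrays. Over 28 pairs of EVI1 groups this correlation had a median of 0.11 and ranged from -0.217 to 0.522. Between cultures without and with tet at 48 h it was 0.0342, and for P2 minus U937T it was -0.207.

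Members and gene lists were chosen with earlier results of these data known. Genes were named by rule: MECOM and MS4A3, the 12 largest called changes in each direction, up to 4 called genes of each list, the 5 largest late changes and differences from the control lines in each direction, the 5 widest gaps between clones, and all BCL2 and MS4A family members. The number of arrays limits the precision. Motifs were searched in RefSeq promoter windows matched by symbol.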

Additional observations from a re-analysis of the deposited data

Results flagged for a closer look

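The change of E10 and E14 at 48 h differed from that of P2 and U937T, by the test of the difference itself, for 434 genes above zero and 541 below zero. Among the genes described, the differences above zero were 3.57 for MECOM, 3.24 for CHI3L1, 2.98 for CD52, 2.58 for RIN2, 2.52 for ITLN1, 1.35 for ITGAM and 0.85 for NKAPL. Those below zero were -3.56 for MS4A3, -2.56 for MYC, -2.45 for CLEC5A, -2.41 for GPR34, -2.34 for CCDC26, -1.79 for LILRA2, -1.71 for GPI, -1.66 for IL18RAP and -0.86 for H2AC8.

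The change of the clones at 48 h differed from their change at 24 h for 369 genes above zero and 291 below zero. The differences were 2.93 for CD52, 2.56 for ITGAM, 2.46 for TYROBP, 2.46 for S100A8 and 2.42 for CFP. They were -2.54 for MS4A3, -2.52 for GINS4, -1.84 for CTH, -1.80 for ALDH1L2, -1.73 for PRTN3 and -0.80 for NOP16.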

How the results depend on the processing

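With 1 array per line and condition, leaving out a line left 1 line in that arm, assumed to vary like the other groups. Without E10 or E14 every count fell, and over the 4 lines left out in turn genes higher in the EVI1 clones at 48 h numbered 1044 to 2909 and genes lower 883 to 2679, differences from the control lines 29 to 332 above zero and 35 to 340 below zero, and differences from 24 h 9 to 415 and 1 to 300. Requiring a 2-fold change in addition gave 575 and 519, 124 and 122, and 101 and 55 genes. With only the arrays at 48 h, 177 differences from the control lines were above zero and 195 below. With the probe set of largest spread standing for each gene, 359 of these differences were below zero, and 223 and 134 genes differed from 24 h. Without the E14 arrays at 12 and 24 h, a setting chosen after seeing the data, 282 and 355 genes differed from the control lines and 56 and 42 from 24 h. The cause was not tested in any of these. Without the line as a replicate block, 2695 genes were higher and 2480 lower in the clones at 48 h, 365 and 487 differed from the control lines and 276 and 227 from 24 h.

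Directions turned in the following cases, beside those of list medians near zero given last. With the probe set of largest spread, the changes were -0.0045 for BAD, -0.3388 for BCL2L11, -0.1785 for BCL2L2, -0.1278 for MCL1 and 0.1269 for MS4A4A, the late change of SUV39H2 was 0.0645, and the list medians were -0.0442 for glycolysis and pentose phosphate, -0.0677 for lipid efflux, -0.0028 for proapoptotic and -0.1408 for prosurvival BCL2 members and -0.0212 for B cell markers. With arrays centred on their medians BIK was at 0.0053. When a line was left out, EHF was between -0.9712 and 0.2703, C3orf36 between -0.7592 and 0.4737, GDA between -1.0095 and 0.1022, BIK between -0.305 and 0.2994, MS4A4A between -0.0956 and 0.0757, MS4A12 between -0.1232 and 0.0754 and MS4A15 between -0.0429 and 0.1129. The glycolysis median was then between -0.0153 and 0.0093, and that of B cell markers between -0.0084 and 0.0428. With the 3′ minus 5′ difference as a covariate the glycolysis median was -2e-04. With a floor of 5, the median was 0.0084 for chemokines and -0.0807 for B cell markers. Medians near zero also changed sign for EVI1 corepressors and partners (lowest -0.1544, sign kept in 13 of 16 alternatives), epithelial markers (highest 0.0176, 14 of 16), MHC class II (lowest -0.029, 15 of 16) and T and NK cell markers (highest 6e-04, 15 of 16). The list medians of ribosome assembly (-1.38 to -1.33), interferon-stimulated genes (0.82 to 1.07), aminoacyl-tRNA synthetases (-0.83 to -0.78) and DNA replication (-0.46 to -0.31) kept their sign under all 16 alternatives. Low intensity limits what can be seen for dim genes such as MPO and CD14.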
